A study of Mus musculus with 10 samples.

Results

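The 10 genes described here belong to the Bcl2 family, and they were chosen by name: the anti-apoptotic genes Bcl2l1, Mcl1 and Bcl2, the BH3-only genes Bmf, Bcl2l11, Bid, Bbc3 and Pmaip1, and the effector genes Bak1 and Bax. They are 10 of the 25579 genes in the expression files, and all 10 passed the filter on low values that left 13436 genes for testing. The study asked how the R31Q substitution in the DNA-binding paired domain of Pax5, the transcription factor that commits progenitors to the B cell lineage, alters early B cell development. Mouse (C57BL/6) bone marrow pro-B cells of 4 genotypes were sorted ex vivo for RNA-seq, with 2 libraries per genotype. Cultured pro-B cells of 2 genotypes were used for Pax5 ChIP-seq, with 1 library per genotype.

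The RNA genotypes were Pax5+/+, Pax5+/- (1 null allele), Pax5R31Q/- (the R31Q allele over the null allele) and Pax5 fl/fl Vav-Cre, which is called Pax5-/- below. Vav-Cre is a transgene expressed throughout blood cell development, so that the floxed alleles are deleted in all blood lineages, and the labels call these last cells progenitor cells where they call the others pro-B cells. The ChIP-seq cells were grown for a short time on OP9 stromal cells with IL-7. The wild-type Pax5 library came from Rag2-/- cells, which cannot recombine immunoglobulin genes, and the other from Pax5R31Q/- cells. A difference in the Pax5 genotype and one in the Rag2 genotype therefore cannot be told apart between the ChIP-seq libraries. The antibody was raised against the paired domain, the part of the protein that carries R31Q. Neither the animals' ages nor whether libraries of a genotype came from separate animals is given in the labels, so the p-values measure the spread between libraries.

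Bcl2 family proteins decide at the mitochondrial outer membrane whether a cell starts intrinsic apoptosis. The anti-apoptotic proteins Bcl-xL (from Bcl2l1), Mcl1 and Bcl2 hold the effectors Bax and Bak in check, BH3-only proteins such as Bim (from Bcl2l11), Puma (from Bbc3), Noxa (from Pmaip1), Bmf and Bid neutralise the anti-apoptotic proteins or activate the effectors, and active Bax and Bak make the membrane leak cytochrome c. Early B cells depend on Mcl1 and on survival signals from the IL-7 receptor, and Bcl-xL is known as a survival protein of the pro-B to pre-B cell transition.

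Expression is given as TPM, a read count corrected for gene length and scaled to the same total in each library, so that levels can be compared between genes. The reads behind the TPM values came to between 21625407 and 34488454 per library, with the lowest total in a Pax5-/- library. Whole-gene Pax5 values do not check the Pax5-/- label, since they also cover exons outside the floxed part: they were 418 and 444 TPM in Pax5+/+, 272 and 287 in Pax5+/-, 306 and 293 in Pax5R31Q/- and 1242 and 1409 in Pax5-/- cells. All 13 pro-B cell markers examined were detected, and their summed level lay between 16362 and 20871 TPM in the 6 libraries that carry a Pax5 allele and was 9726 and 8882 TPM in Pax5-/-. All 10 mitosis markers were lower in Pax5-/- than in Pax5+/+ cells (summed level 580 and 557 against 2835 and 1810 TPM) and all 6 dendritic cell markers were higher (1055 and 1541 against 339 and 301 TPM). The T cell genes Cd3e, Cd3d and Cd3g stayed under 1 TPM in each library. The summed T cell markers were 421 and 407 TPM in Pax5-/- and at most 187 TPM elsewhere. Against Pax5+/+, 4 of 7 T cell markers tested rose in Pax5-/- and 3 did not pass the test, and Lck alone was at 273 and 271 TPM there. The summed NK cell markers were 72.8 and 52.2 TPM in Pax5-/- and at most 30.6 TPM elsewhere, although of 5 NK cell markers tested 3 rose and 2 fell. The myeloid sum was 622 and 405 TPM in Pax5+/+, 669 and 1544 in Pax5+/-, 1005 and 954 in Pax5R31Q/- and 2087 and 321 in Pax5-/- cells, and the erythroid sum was at most 128 TPM in each library. The part that these cell type and cell cycle differences have in any result below was not tested, and in bulk RNA fewer cells of a type and less RNA per cell cannot be told apart.

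Genotypes were compared with limma on log2(TPM + 1), with p-values adjusted over all 13436 genes by the Benjamini-Hochberg method. A gene is said to have risen or fallen where its adjusted p was under 0.05. The comparisons share libraries: Pax5+/+ enters 3 of them and Pax5R31Q/- also 3. For genes at a few TPM the log2 fold change on this scale understates the change. The median change of all genes was -0.11 for Pax5-/- against Pax5+/+ and 0.13 for Pax5R31Q/- against Pax5-/-, and that offset lies behind each member's value in these comparisons, whereas under median-ratio scaling the medians were -0.02 and 0.01.

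**Figure D1:**
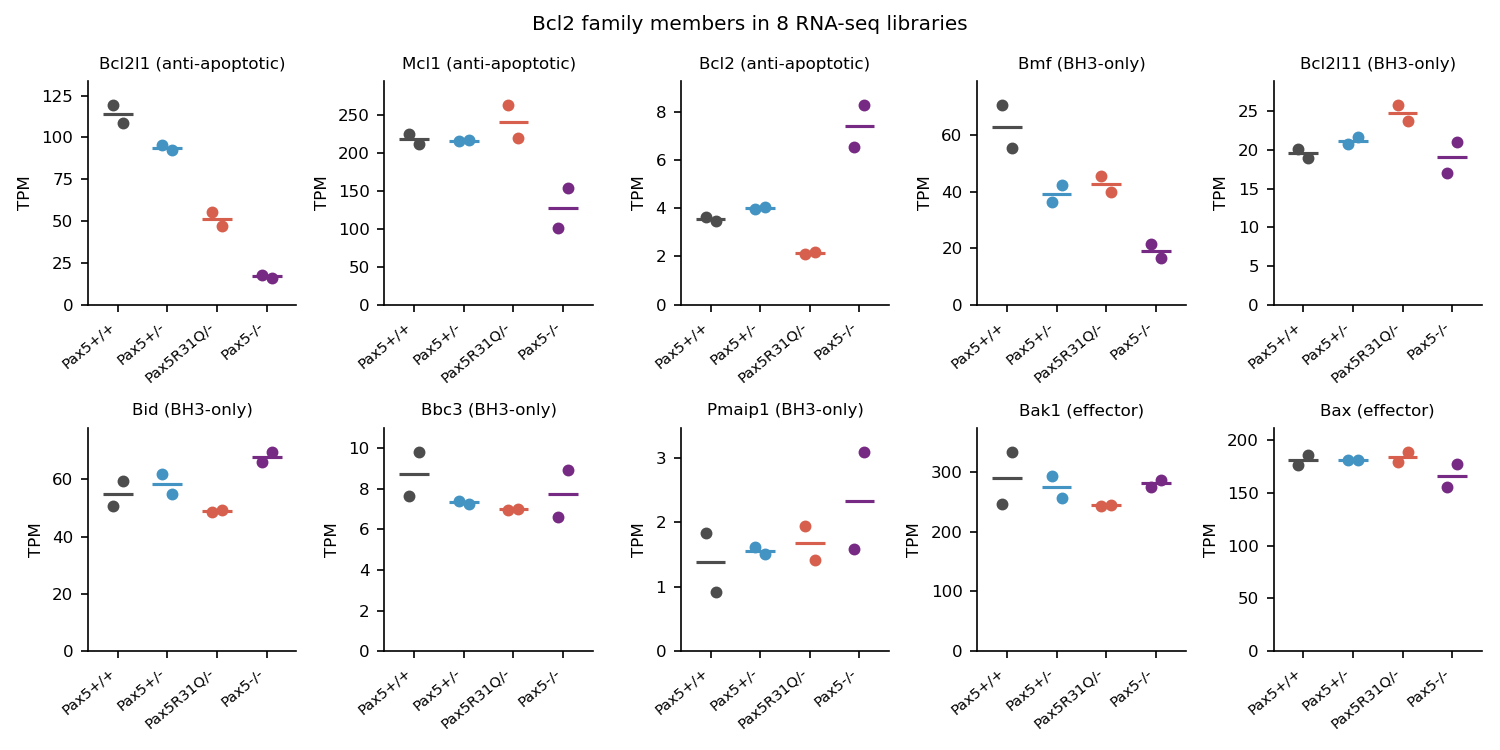
TPM (vertical axes, linear from 0, a scale of its own for each gene) of the 10 members in the 4 genotypes (horizontal axes), with 1 point per library and a bar at the mean of the 2 libraries. Bcl2l1 steps down from 119 and 109 TPM in Pax5+/+ to 17.9 and 16.0 TPM in Pax5-/-, while Bax stays between 155 and 189 TPM throughout.

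Bcl2l1, which encodes Bcl-xL, was the member with the widest spread between genotypes, and its level followed the Pax5 genotype in steps. It was at 119 and 109 TPM in Pax5+/+, 95.6 and 92.3 in Pax5+/-, 55.5 and 47.1 in Pax5R31Q/- and 17.9 and 16.0 in Pax5-/- cells. No genotypes overlapped. Against Pax5+/+, the mean was 2.22-fold lower in Pax5R31Q/- (log2 fold change -1.14, SE 0.13, adjusted p = 0.0042, n = 2 per genotype) and 6.73-fold lower in Pax5-/- (-2.68, SE 0.13, adjusted p = 1.27e-05). The step from Pax5+/+ to Pax5+/- did not pass the test (-0.27, 95% interval -0.57 to 0.02, adjusted p = 0.89). Pax5R31Q/- cells held 3.03-fold more Bcl2l1 than Pax5-/- cells (1.54, adjusted p = 0.000174) and 1.83-fold less than Pax5+/- cells (-0.86, adjusted p = 0.04). Of 8 pre-B and immature B cell markers tested, 3 also fell in Pax5R31Q/- against Pax5+/+ and 0 rose, with a summed level of 438 and 395 TPM against 894 and 977 TPM, and the myeloid sum was higher in both Pax5R31Q/- libraries than in both Pax5+/+ libraries, with 0 of 9 myeloid markers past the test. Their part in the lower Bcl2l1 level was not tested. The fall against Pax5+/+ had an adjusted p of 0.0578 without Pax5R31Q/- library 2. The difference from Pax5+/- was not called without any one of the Pax5+/+, Pax5+/- and Pax5R31Q/- libraries (adjusted p between 0.0747 and 0.346).

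Mcl1, the short-lived anti-apoptotic protein on which early lymphocytes depend, was the most abundant anti-apoptotic transcript in each library. It was at 226 and 212 TPM in Pax5+/+, 216 and 217 in Pax5+/-, 263 and 219.9 in Pax5R31Q/- and 102 and 154 in Pax5-/- cells. The Pax5-/- libraries stood below the other 6 and apart from each other. Mcl1 fell in Pax5-/- against Pax5+/+ (-0.80, SE 0.19, adjusted p = 0.0145) and was higher in Pax5R31Q/- than in Pax5-/- (0.94, adjusted p = 0.00854). The first of these calls was lost without Pax5+/+ library 1 or 2 (adjusted p = 0.0743 and 0.0553), and the change was -0.51 without Pax5-/- library 1 and -1.10 without library 2. The second had an adjusted p of 0.0766 without Pax5R31Q/- library 1. Pax5R31Q/- and Pax5+/+ cells did not differ beyond the spread (log2 difference 0.14, 95% interval -0.31 to 0.58).

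Bcl2 itself was scarce, and it moved the other way in Pax5-/- cells. It was at 3.62 and 3.49 TPM in Pax5+/+, 3.98 and 4.06 in Pax5+/-, 2.11 and 2.20 in Pax5R31Q/- and 6.53 and 8.26 in Pax5-/- cells, with no overlap between genotypes. These values rest on 216 to 858 reads per library. Bcl2 rose 2.08-fold in Pax5-/- against Pax5+/+ (0.88, SE 0.17, adjusted p = 0.00613), with an adjusted p of 0.0588 when the fit held these 2 genotypes alone. It was 3.43-fold lower in Pax5R31Q/- than in Pax5-/- cells (-1.40, adjusted p = 0.0009). Against Pax5+/+, the lower Bcl2 level of Pax5R31Q/- cells was not past the test (-0.53, adjusted p = 0.15), whereas limma-voom on the reads recovered from the TPM values called it (-0.76, adjusted p = 0.0265). The same held against Pax5+/- cells (-0.67, adjusted p = 0.197, and by limma-voom -0.91, adjusted p = 0.0281).

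The make-up of the anti-apoptotic transcripts shifted with these levels. Bcl2l1 made up 34.2% and 33.6% of the summed TPM of the 3 genes in Pax5+/+, 30.3% and 29.4% in Pax5+/-, 17.3% and 17.5% in Pax5R31Q/- and 14.2% and 8.97% in Pax5-/- cells. The summed level itself was 348 and 324 TPM in Pax5+/+, 316 and 314 in Pax5+/-, 321 and 269 in Pax5R31Q/- and 126 and 178 in Pax5-/- cells. The sum was thus lowest in Pax5-/- cells, and in Pax5R31Q/- library 1 it lay within the range of the Pax5+/+ and Pax5+/- libraries. No test was run on these shares and sums.

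Bmf, a BH3-only protein that can be held at the actin cytoskeleton, was like Bcl2l1 highest in Pax5+/+ and lowest in Pax5-/- cells. It was at 70.6 and 55.5 TPM in Pax5+/+, 36.5 and 42.2 in Pax5+/-, 45.4 and 40.1 in Pax5R31Q/- and 21.4 and 16.4 in Pax5-/- cells. The Pax5+/+ libraries were above all others and the Pax5-/- libraries below all others, and Pax5+/- and Pax5R31Q/- overlapped. Bmf fell 3.33-fold in Pax5-/- against Pax5+/+ (-1.69, SE 0.18, adjusted p = 0.000384) and was 2.26-fold higher in Pax5R31Q/- than in Pax5-/- (1.14, adjusted p = 0.0029). The lower values in Pax5+/- (-0.66, 95% interval -1.08 to -0.24, adjusted p = 0.453) and in Pax5R31Q/- (-0.54, 95% interval -0.96 to -0.12, adjusted p = 0.161) did not pass the adjusted test against Pax5+/+, although neither interval includes 0.

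Bid, which links death receptors to the mitochondrion after cleavage by caspase-8, was at 50.6 and 59.3 TPM in Pax5+/+, 61.8 and 54.7 in Pax5+/-, 48.4 and 49.2 in Pax5R31Q/- and 66.0 and 69.6 in Pax5-/- cells. The Pax5-/- libraries were the highest and the Pax5R31Q/- libraries the lowest. Bid was lower in Pax5R31Q/- than in Pax5-/- cells (-0.47, SE 0.12, adjusted p = 0.025), with an adjusted p of 0.129 without Pax5R31Q/- library 1 and 0.113 without library 2. The higher level in Pax5-/- against Pax5+/+ was not past the test (0.30, adjusted p = 0.0966), but it was called under quantile normalization, median-ratio scaling and limma-voom (adjusted p = 0.0294, 0.0412 and 0.0439). It was 0.19 without Pax5+/+ library 1 (adjusted p = 0.304), and its adjusted p was 0.277 with these 2 genotypes alone in the fit.

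The other BH3-only genes did not pass the test in any of the 5 comparisons. Bcl2l11, which encodes Bim, the main BH3-only protein of cytokine-deprived lymphocytes, was at 20.1 and 19.0 TPM in Pax5+/+, 20.7 and 21.7 in Pax5+/-, 25.8 and 23.8 in Pax5R31Q/- and 17.0 and 21.1 in Pax5-/- cells. The Pax5R31Q/- libraries were the highest, and the Pax5-/- libraries spanned the Pax5+/+ values. Its difference between Pax5R31Q/- and Pax5-/- (0.37, adjusted p = 0.084) was larger without Pax5-/- library 2 (0.51) and smaller without library 1. Bcl2l11 shares 215 exonic bases on the same strand with Acoxl, which was at 0.593 TPM or less, so few of its reads can come from there.

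Bbc3, which encodes Puma, and Pmaip1, which encodes Noxa, are both known targets of p53 and were scarce. Bbc3 was at 7.67 and 9.82 TPM in Pax5+/+, 7.42 and 7.24 in Pax5+/-, 6.98 and 7.03 in Pax5R31Q/- and 6.61 and 8.92 in Pax5-/- cells. The first 3 genotypes did not overlap one another, and the Pax5-/- libraries spanned Pax5+/- and Pax5R31Q/-. Pmaip1 ranged from 0.911 TPM in a Pax5+/+ library to 3.09 TPM in a Pax5-/- library, on 30 to 116 reads, and all genotypes overlapped. At this depth, changes of Pmaip1 within the 95% interval from -0.19 to 1.15 on the log2 scale between Pax5-/- and Pax5+/+ cells were not resolved.

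The effectors were abundant and even. Bak1 was at 246 and 334 TPM in Pax5+/+, 294 and 256 in Pax5+/-, 243 and 245 in Pax5R31Q/- and 275 and 287 in Pax5-/- cells. Bax was at 177 and 186, 181 and 181, 179 and 189, and 155 and 177 TPM in the same order. For neither gene did a comparison pass the test. The 95% intervals of the log2 difference between Pax5-/- and Pax5+/+ were -0.38 to 0.12 for Bax and -0.39 to 0.33 for Bak1, which leaves out a change as large as that of Bmf or Bcl2l1.

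**Figure D2:**
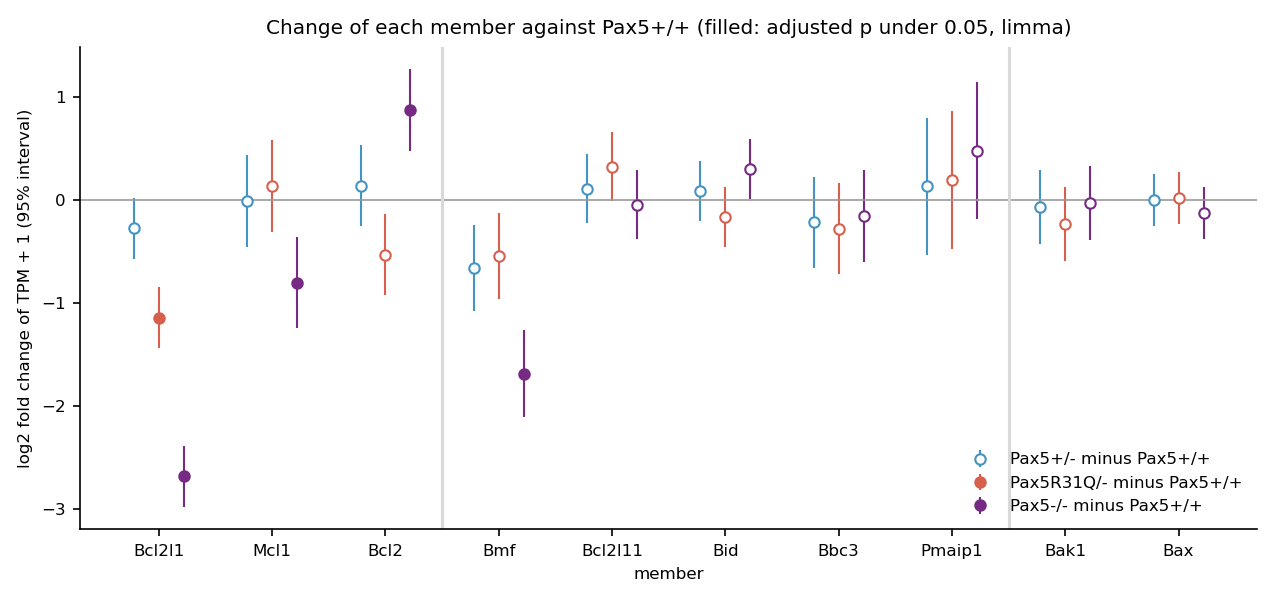
Log2 fold change of TPM + 1 against Pax5+/+ (vertical axis, point with its 95% interval from limma) of each member (horizontal axis) in Pax5+/- (blue), Pax5R31Q/- (red) and Pax5-/- (purple), with filled points where the adjusted p was under 0.05. The filled points are Bcl2l1 in Pax5R31Q/-, at -1.14, and Bcl2l1, Mcl1, Bcl2 and Bmf in Pax5-/-, at -2.68, -0.80, 0.88 and -1.69.

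Counted over the family, 1 of 10 members fell and 0 rose in Pax5R31Q/- against Pax5+/+, where 2.55% of all genes tested fell and 1.62% rose by limma. At an unadjusted p under 0.05 there were 3 members, beside 18.8% of all genes, and limma-voom called 2, beside 6.43%. In Pax5-/- against Pax5+/+, 3 members fell and 1 rose, where 19.7% of all genes fell and 16.2% rose. With the study's further criteria of more than a 3-fold change on the log2(TPM + 1) scale and a mean above 5 TPM in one of the genotypes, Bcl2l1 and Bmf were called lower, against 3.82% of all genes. In the other 4 comparisons 0 members met these criteria on that scale, the fall of Bcl2l1 in Pax5R31Q/- cells included. Of all genes, 0.856% met them in Pax5R31Q/- against Pax5+/+, 0.0223% in Pax5+/- against Pax5+/+, 5.51% between Pax5R31Q/- and Pax5-/- and 0.208% between Pax5R31Q/- and Pax5+/-. Between Pax5R31Q/- and Pax5-/- cells the ratio of mean TPM was over 3-fold for Bcl2 (3.43-fold, limma-voom log2 fold change -1.91, adjusted p = 3.35e-05), and for Bcl2l1 it was 3.03-fold with a limma-voom log2 fold change of 1.48, which is under 3-fold. In Pax5+/- against Pax5+/+, limma called 0 of 10 members in either direction, where 0.0223% of all genes fell and 0% rose. At an unadjusted p under 0.05 there was 1 member (Bmf), beside 6.06% of all genes, and limma-voom called 0, beside 0.262%. Between Pax5R31Q/- and Pax5-/-, 3 members were higher in Pax5R31Q/- and 2 lower, where 19.9% of all genes were higher and 14.7% lower. Between Pax5R31Q/- and Pax5+/-, 1 member was lower and 0 higher, where 0.35% of all genes were lower and 0.268% higher, and limma-voom called 2 members, beside 1.44% of all genes. The median change over the 10 members was -0.20, -0.09 and -0.01 on the log2 scale in Pax5R31Q/-, Pax5-/- and Pax5+/- against Pax5+/+, beside 0.04, -0.11 and 0.02 over all genes tested.

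Since TPM is scaled per length, the members can be ranked within a genotype. In Pax5+/+ cells the order of mean TPM was Bak1 (290.1), Mcl1 (219), Bax (181), Bcl2l1 (114), Bmf (63.1), Bid (54.9), Bcl2l11 (19.6), Bbc3 (8.75), Bcl2 (3.55) and Pmaip1 (1.38), and among neighbours only the libraries of Bmf and Bid overlapped. In Pax5R31Q/- cells Bcl2l1 (51.3) overlapped with Bid (48.8), and Mcl1 (242) with Bak1 (244). In Pax5-/- cells Bcl2l1 (16.9) had gone below Bid (67.8) and overlapped with Bmf (18.9), which overlapped with Bcl2l11 (19.0), and Bcl2 (7.39) overlapped with Bbc3 (7.76).

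Pax5 peaks were taken as the deposited MACS calls, from 1 library per genotype. A peak was counted for a gene when it met the gene or the 10 kb on either side (RefSeq, GRCm38), and called common when at least 1 bp of a peak in the other list met it. The wild-type (Pax5+/+ Rag2-/-) list held 41983 peaks and the Pax5R31Q/- list 18821, and with no replicate and no peak scores in the files a missing peak means that none was called. The members had 33 wild-type peaks, of which 26 (78.8%) were common, where 68.9% of the wild-type peaks in or near all genes tested were common and 75.6% after peaks mostly in repeats were left out. The Pax5R31Q/- list had 31 peaks at the members. All 10 members had a wild-type peak, as did 86.4% of the genes tested, and 9 had a Pax5R31Q/- peak, as did 85.6%. Within 1 kb of a transcript start, 8 members had a wild-type peak (68.2% of the genes tested) and 9 a Pax5R31Q/- peak (73.2%). These shares lie near the background. Of the 26 common wild-type peaks, 20 were narrower than the Pax5R31Q/- peak they met, and the median width over each whole list was 332 and 559 bp.

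**Figure D3:**
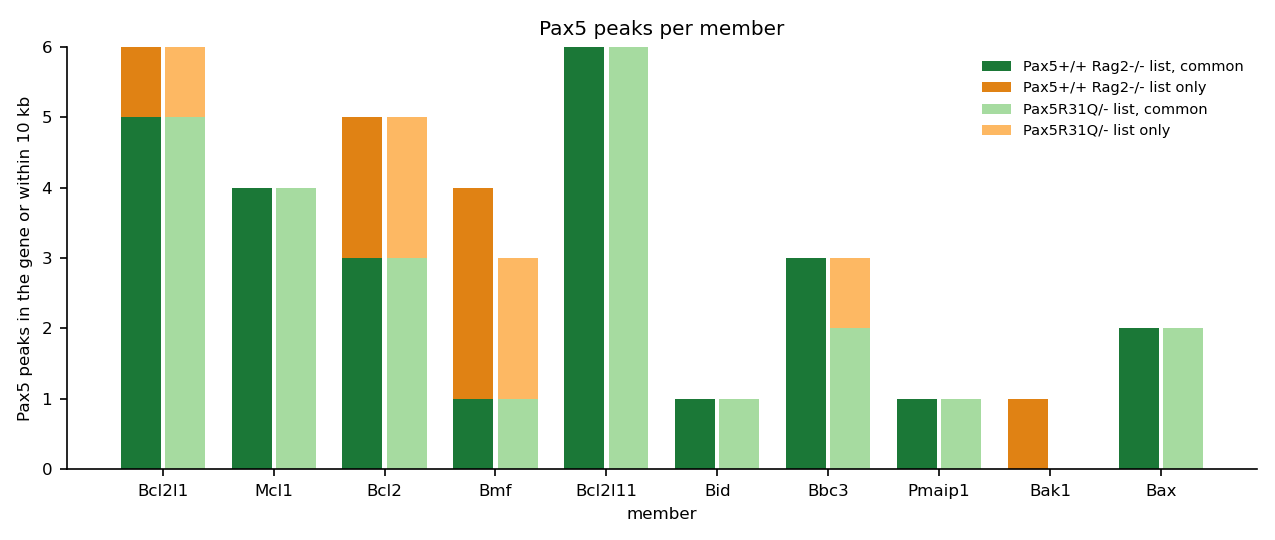
Number of Pax5 peaks in each member or within 10 kb of it (vertical axis), with the wild-type list on the left and the Pax5R31Q/- list on the right of each pair of bars, and green for common and orange for peaks in 1 list only. All wild-type peaks were common at Mcl1 (4), Bcl2l11 (6), Bid (1), Bbc3 (3), Pmaip1 (1) and Bax (2), whereas Bmf had 1 common peak of 4 and Bak1 0 of 1.

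The peaks can be compared with the 15-base Pax5 recognition consensus, of which 14 positions name a base and both strands were searched, with no other motif. The best match within the central 300 bases had a median of 9 of 14 positions over all wild-type peaks, and at least 10 positions matched in 25.3% and at least 11 in 7.80% of them. At the members, 12 of 33 wild-type peaks had a match of at least 10 and 3 of at least 11 positions. The share with at least 10 was 36.4% over all these peaks and 34.6% over the 26 common ones, beside 25.3% and 37.9% in the whole list. Of the Pax5R31Q/- peaks, 7 of 31 at the members (22.6%) and 35.8% in the whole list had such a match. The 300 bases were centred on each list's own peak, so a common site can score differently in the wild-type and Pax5R31Q/- lists. A match is a description of the letters and not a binding site. In the sequences below, from the RefSeq GRCm38.p6 genome, capitals mark the best match, 5′ to 3′ along the strand named.

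Bcl2l1 (chr2:152758732-152833803, minus strand) kept 5 of its 6 wild-type peaks in Pax5R31Q/- cells. They included the peak at a transcript start, chr2:152831039-152831850, whose midpoint lies 26 bp inside a predicted start and 284 bp inside the nearest curated one. They also included the widest peak at any member, an intronic one of 1234 bp at chr2:152788842-152790075 that met a Pax5R31Q/- peak of 1402 bp. The wild-type peak without a counterpart lay in the same intronic region at chr2:152792578-152792950, and it carried one of the best matches at any member, with 11 positions. One peak of 475 bp, 91 bp from a curated start, was called only in Pax5R31Q/- cells. The matches in these peaks are shown because Bcl2l1 is the gene that fell in Pax5R31Q/- cells while most of its peaks were called there:
Bcl2l1 start, common (chr2:152831409-152831435, plus strand): gagtcgGCACGGAAGCGGGACggcaaa
Bcl2l1 intron, common (chr2:152789443-152789469, plus strand): gcagagGCAGCCAGGGGCAATgttgcc
Bcl2l1 intron, wild type only (chr2:152792778-152792804, minus strand): tggggtGCATTCATGCGTAGCagaggg
Bcl2l1 start, Pax5R31Q/- only (chr2:152830650-152830676, plus strand): caggctCCAGCCACCCGGGAGcccaac

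The central 300 bases of the intronic wild-type peak are given for context, with the same match in capitals as it reads on the plus strand:
Bcl2l1 intron, wild type only (chr2:152792614-152792913, plus strand): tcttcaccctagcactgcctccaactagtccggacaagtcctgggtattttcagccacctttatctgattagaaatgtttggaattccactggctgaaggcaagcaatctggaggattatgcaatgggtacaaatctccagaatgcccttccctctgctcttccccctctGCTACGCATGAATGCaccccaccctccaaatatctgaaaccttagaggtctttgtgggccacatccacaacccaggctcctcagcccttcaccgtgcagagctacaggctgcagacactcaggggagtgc

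Bmf (chr2:118528757-118549686, minus strand) kept 1 of its 4 wild-type peaks, the intronic one at chr2:118534027-118534402. It was the only member whose wild-type peaks at a transcript start were all missing from the Pax5R31Q/- list, which was so for 4.02% of the genes with such a peak. That peak, chr2:118544217-118544722, lay at the start of a non-coding transcript, 5217 bp inside the first start of the gene. In Pax5R31Q/- cells a peak was called instead at the first start itself, chr2:118549532-118549907, and another 4825 bp upstream of it. The letters of the start peaks and of the common peak are shown since they are the members' one exchange of start peaks between lists:
Bmf inner start, wild type only (chr2:118544391-118544417, plus strand): ggctggGCTGTCAAGCAGGACaacctc
Bmf first start, Pax5R31Q/- only (chr2:118549734-118549760, minus strand): ctggcaGCTGCCCAGCTTGAGacttgg
Bmf intron, common (chr2:118534208-118534234, plus strand): acttcaGCTGCAAAGCTAGAGacttgg

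Bcl2 (chr1:106538176-106714290, minus strand) had 5 peaks in each list, 3 of them common and all 3 intronic and over 100 kb from the start. No wild-type peak lay within 1 kb of its start, where a Pax5R31Q/- peak of 840 bp was called at chr1:106713667-106714506. The nearest wild-type peak was 3107 bp upstream, at chr1:106717267-106717528, and had no counterpart. Its whole sequence is given below because it is the one wild-type peak near the start of a gene that rose in Pax5-/- cells, and the best match at the Pax5R31Q/- start peak follows it:
Bcl2 upstream, wild type only (chr1:106717267-106717528, plus strand, match on the minus strand): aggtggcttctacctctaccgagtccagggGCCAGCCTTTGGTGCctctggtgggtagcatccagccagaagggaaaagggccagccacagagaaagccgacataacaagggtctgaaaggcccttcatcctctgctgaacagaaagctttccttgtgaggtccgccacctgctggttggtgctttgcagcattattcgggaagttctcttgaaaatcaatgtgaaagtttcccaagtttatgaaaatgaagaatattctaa
Bcl2 start, Pax5R31Q/- only (chr1:106714105-106714131, plus strand): tccgctGCACCCCACCGGCGCaccccg

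Mcl1 (chr3:95656944-95663179, plus strand) had 4 wild-type peaks and 4 Pax5R31Q/- peaks, all common. The peak at the curated start, chr3:95658236-95659056, was 821 bp wide, and the peak 4765 bp upstream of the first annotated start, chr3:95651960-95652398, carried an 11-position match. These are shown as peaks called in both lists at a gene whose level in Pax5R31Q/- cells did not differ from Pax5+/+ beyond the spread:
Mcl1 start, common (chr3:95658612-95658638, plus strand): ccgcgcTCCGCCAACCGTAGCcgcgga
Mcl1 upstream, common (chr3:95652156-95652182, plus strand): acatcgCTAGCCAAGCATGACggctca

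Bcl2l11 (chr2:128126038-128162547, plus strand) had 6 wild-type peaks, all common, with the widest, 1069 bp, 38 bp inside the first start at chr2:128125542-128126610. Bid (chr6:120893119-120917062, minus strand) had 1 common peak at its start, and Pmaip1 1 common peak, 98 bp upstream of its start in the wild-type list. Bbc3 (chr7:16308398-16318334, plus strand) had 3 common wild-type peaks, 2 of which met a single Pax5R31Q/- peak of 1394 bp. Bax (chr7:45461695-45466903, minus strand) had 1 common peak at its start and 1 downstream, of which the Pax5R31Q/- peak lay in Ftl1. Bak1 (chr17:27019812-27028627, minus strand) had no peak at its start in either list, and its 1 wild-type peak, downstream of the gene at chr17:27012287-27012655, was not met.

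**Figure D4:**
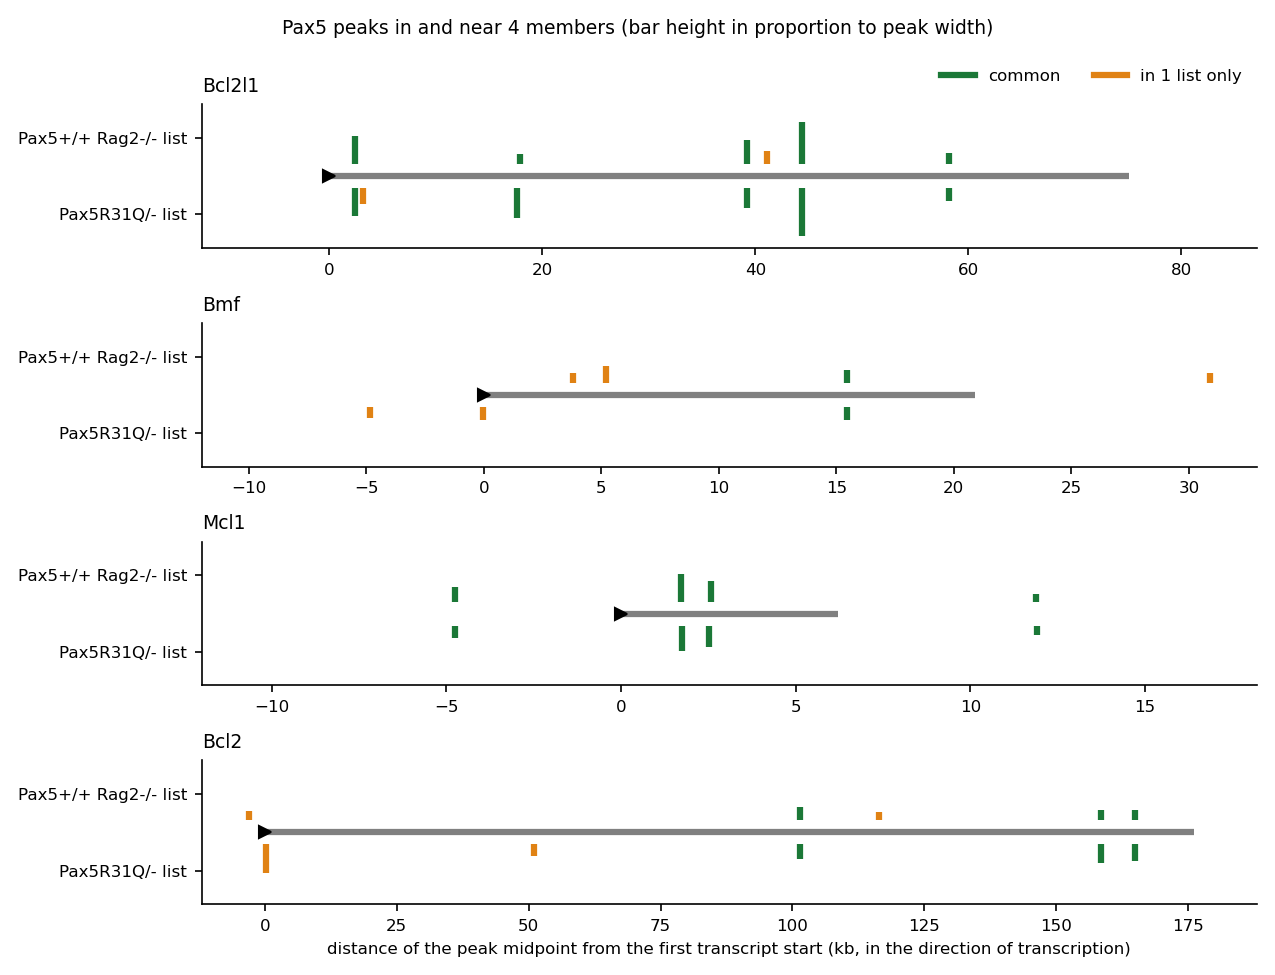
Pax5 peaks along Bcl2l1, Bmf, Mcl1 and Bcl2, by distance of the peak midpoint from the first transcript start in kb along the direction of transcription (horizontal axes), with the wild-type list above and the Pax5R31Q/- list below the grey gene body and bar heights in proportion to peak width. Green peaks were common, orange peaks were in 1 list only, and at Bmf the orange bars sit 5217 bp inside the first start in the wild-type list and 33 bp upstream of it in the Pax5R31Q/- list.

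Beside the 10 members, 86 further genes in 7 lists of apoptosis and survival were examined, of which 77 passed the filter. In Pax5R31Q/- against Pax5+/+, 3 of the 77 rose and 0 fell by limma, where 1.62% of all genes rose and 2.55% fell, with a median log2 change of 0.11 (0.04 over all genes tested). They were Casp8, the initiator caspase of death receptors (108 ± 1.63 against 68.9 ± 4.01 TPM, SD, n = 2, adjusted p = 0.0436), Tnfrsf10b, the mouse TRAIL receptor (3.59 ± 0.00670 against 0.890 ± 0.435 TPM, adjusted p = 0.0152), and Pik3r1, a regulatory subunit of PI3 kinase (113 ± 2.83 against 49.6 ± 6.29 TPM, adjusted p = 0.0042). Each of the 3 calls was lost without either Pax5R31Q/- library (adjusted p between 0.0568 and 0.279). That of Tnfrsf10b was also lost without Pax5+/+ library 2 (adjusted p = 0.0823), and that of Casp8 without any one of the Pax5+/+ and Pax5+/- libraries, with no filter on low TPM and with eBayes without trend (adjusted p between 0.066 and 0.217). In Pax5-/- against Pax5+/+, 15 fell and 12 rose, with a median of -0.07 (-0.11 over all genes). These counts lie near the background of 19.7% of all genes lower and 16.2% higher. In Pax5+/- against either Pax5+/+ or Pax5R31Q/- cells, 0 of the 77 passed the test.

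Among the other Bcl2 family genes, 10 of 16 were tested, and in Pax5-/- cells 3 fell and 1 rose. Bcl2l14, the one that rose, went from 0.175 ± 0.0805 to 4.14 ± 0.00579 TPM (SD, n = 2, adjusted p = 0.000125). Bnip3, a mitochondrial protein induced by low oxygen, fell from 14.1 ± 2.10 to 6.05 ± 2.61 TPM (adjusted p = 0.0108), and the BH3-only gene Bik from 1.57 ± 0.0700 to 0.256 ± 0.0628 TPM (adjusted p = 0.00284). Of 19 caspase and apoptosome genes, 3 fell and 4 rose. Birc5, the inhibitor of apoptosis family member survivin, which also acts in mitosis, fell from 107 ± 23.4 to 21.6 ± 2.56 TPM (adjusted p = 0.000108) in the libraries where all 10 mitosis markers were lower. Casp8 rose to 105 ± 16.4 TPM in Pax5-/- (adjusted p = 0.0130).

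Of 8 death receptor genes, 2 fell and 2 rose in Pax5-/- cells. Tnfrsf1a, a receptor of TNF, rose from 14.2 ± 0.900 to 63.5 ± 8.72 TPM (adjusted p = 5.31e-05), Tnfrsf10b rose to 5.98 ± 0.276 TPM (adjusted p = 0.000399), and Tnfsf10, which encodes its ligand TRAIL, fell from 54.8 ± 2.30 to 12.9 ± 2.71 TPM (adjusted p = 7.19e-05). Of 10 p53 pathway genes tested, Phlda3 and Trp53 rose (24.4 ± 0.538 against 9.87 ± 2.04 TPM, and 510.4 ± 27.1 against 361 ± 30.8 TPM), and Mdm2, the ligase that degrades p53, fell (42.2 ± 7.92 against 69.9 ± 6.99 TPM). Of 10 Foxo and Akt genes, 5 fell and 1 rose, where 19.7% of all genes fell and 16.2% rose. Foxo1, a transcription factor of early B cells, fell from 211 ± 13.0 to 75.6 ± 19.2 TPM (adjusted p = 0.000455), Pik3ca fell from 28.0 ± 2.46 to 14.7 ± 5.98 TPM, and Pik3r1 rose to 144 ± 17.5 TPM (adjusted p = 0.000143).

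Of 11 genes of IL-7 survival signalling, Il2rg, the shared chain of the IL-7 receptor, was higher in Pax5-/- (209 ± 24.7 against 148 ± 27.8 TPM, adjusted p = 0.0322) and the other 10 did not pass the test. Of 9 genes for turnover or control of Mcl1 and Bcl2 proteins, the kinase gene Map3k5 rose (74.5 ± 9.30 against 49.2 ± 3.99 TPM). Gsk3b, a kinase that marks Mcl1 for degradation, fell (29.4 ± 6.73 against 43.0 ± 3.16 TPM, adjusted p = 0.0331). The log2 change of Gsk3b was -0.55, but -0.32 without Pax5-/- library 1. That of Il2rg was 0.51, but 0.31 without Pax5+/+ library 1. The calls of Il2rg and Gsk3b were lost with no filter on low TPM (adjusted p = 0.0513 and 0.0504). That of Il2rg was also lost with eBayes without trend (adjusted p = 0.0506). With Pax5-/- and Pax5+/+ alone in the fit, 8 of the named calls in Pax5-/- were lost (adjusted p between 0.0511 and 0.135). They were those of Bnip3, Casp8, Mdm2, Trp53, Il2rg, Pik3ca, Map3k5 and Gsk3b. Leaving out single libraries also ended 6 of these calls: those of Gsk3b and Il2rg without Pax5+/+ library 1 or any one of the Pax5+/- and Pax5R31Q/- libraries, without Pax5+/+ library 2 or Pax5-/- library 1 for Gsk3b and without Pax5-/- library 2 for Il2rg (adjusted p between 0.0628 and 0.133), that of Pik3ca without Pax5+/+ library 1 or 2 (0.103 and 0.0648), that of Bnip3 without Pax5+/+ library 1 (0.0698), and those of Casp8 and Map3k5 without Pax5+/+ library 2 (0.0638 and 0.0635).

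Between Pax5R31Q/- and Pax5-/- cells, 19 of the 77 genes were higher in Pax5R31Q/- and 9 lower, where 19.9% of all genes were higher and 14.7% lower, with a median of 0.17 (0.13 over all genes). Most of the named genes had also differed between Pax5-/- and Pax5+/+, which share the Pax5-/- libraries with this comparison: Foxo1 was at 205 ± 6.30 TPM in Pax5R31Q/-, Birc5 at 113 ± 2.38, Tnfsf10 at 46.6 ± 0.202 and Tnfrsf1a at 17.8 ± 1.19 TPM (SD, n = 2). Bcl2l14, Phlda3, Trp53 and Il2rg were lower than in Pax5-/- cells, and Bnip3, Bik, Mdm2, Pik3ca and Gsk3b higher. Named in this comparison and not in the other were the cytokine receptor kinase gene Jak1 (193 ± 17.2 against 124 ± 12.6 TPM, adjusted p = 0.0106), the stress kinase gene Mapk8 (a log2 difference of 0.98, adjusted p = 0.0218), the caspase inhibitor gene Xiap (54.2 ± 2.16 against 27.9 ± 14.1 TPM, adjusted p = 0.0372) and Fbxw7, part of a ligase that degrades Mcl1 (25.3 ± 2.27 against 16.0 ± 4.97 TPM, adjusted p = 0.0411), all higher in Pax5R31Q/-. The nuclease gene Endog and the kinase gene Pim2 were lower (5.46 ± 1.13 against 11.4 ± 0.835 TPM, and a log2 difference of -0.54). Of the genes named here for this comparison, Bcl2l14, Birc5, Tnfsf10, Tnfrsf1a and Foxo1 were called also without either Pax5R31Q/- library. Bnip3, Bik, Mdm2, Trp53, Il2rg, Pik3ca, Gsk3b, Mapk8, Xiap and Fbxw7 lost their calls whichever of these libraries was left out, Jak1 and Endog were lost without library 1, and Phlda3 and Pim2 without library 2 (adjusted p between 0.053 and 0.232). The calls of Xiap, Fbxw7 and Pim2 were also lost without any one of the Pax5+/+ and Pax5+/- libraries or without Pax5-/- library 1, and that of Trp53 without either Pax5+/- library or Pax5-/- library 1 (adjusted p between 0.0572 and 0.129). The log2 difference of Xiap was 0.50 without Pax5-/- library 1, against 1.02 with all libraries, and that of Fbxw7 0.36, against 0.66. The log2 difference of Pim2 was -0.32 without Pax5R31Q/- library 2, against -0.54 with all libraries. With Pax5R31Q/- and Pax5-/- alone in the fit, the calls of Bnip3, Bik, Xiap, Mdm2, Trp53, Pim2, Pik3ca, Mapk8 and Fbxw7 were lost (adjusted p between 0.0503 and 0.110). Those of Bnip3, Xiap, Pim2 and Fbxw7 were also lost with no filter on low TPM (adjusted p between 0.0518 and 0.0778). That of Trp53 was also lost with eBayes without trend (adjusted p = 0.0573).

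**Figure D5:**
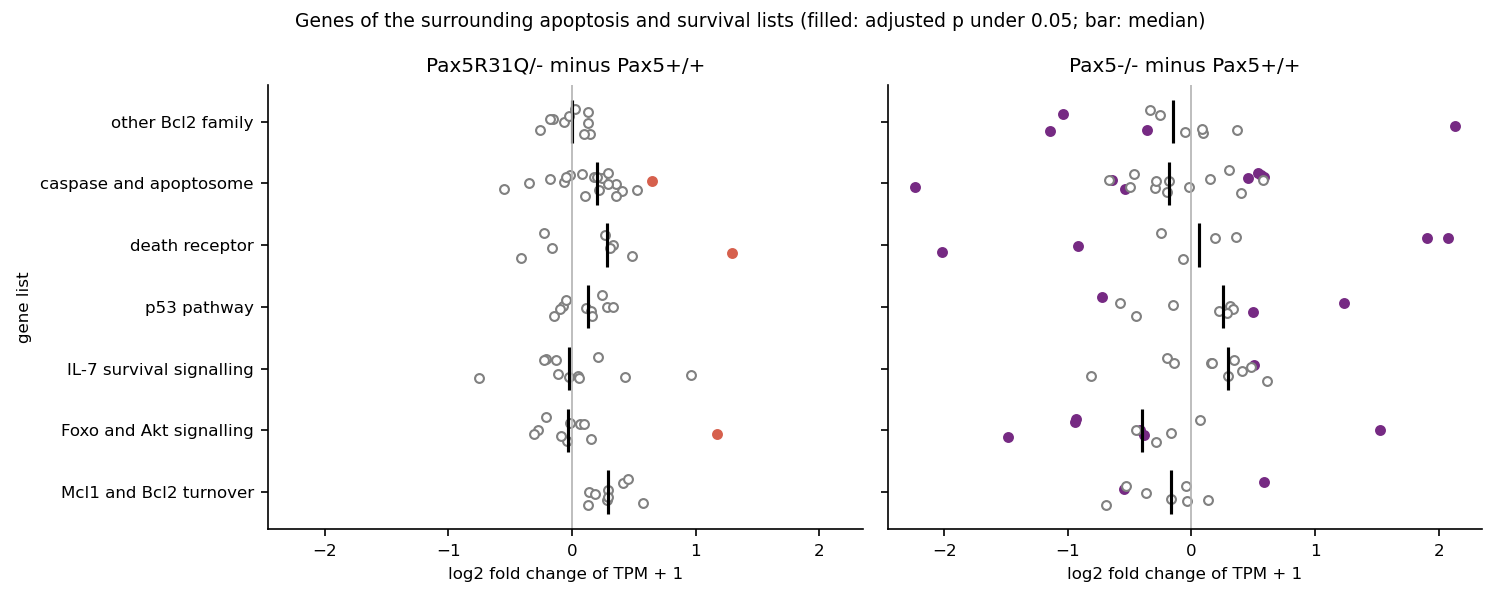
Log2 fold change of TPM + 1 (horizontal axes) of the genes of 7 apoptosis and survival lists (rows) in Pax5R31Q/- (left) and Pax5-/- (right) against Pax5+/+, with filled points at an adjusted p under 0.05 and a bar at the median of each list. The left panel has 3 filled points, all on the right of 0, and the right panel has 27.

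The genes most like the 2 members with the widest range were looked up as a description over the 8 libraries, which share their genotypes. For Bcl2l1 the highest Pearson correlations on log2(TPM + 1) were with Gsn (0.998), Ephx1 (0.997), Ehd2 (0.997), Heyl (0.997) and Prep (0.996). Gsn, which encodes the actin-severing protein gelsolin, averaged 322 TPM in Pax5+/+, 238 in Pax5+/-, 129 in Pax5R31Q/- and 38.7 in Pax5-/- cells, and Heyl went from 69.5 over 43.1 and 11.4 to 0.0156 TPM. For Bmf they were Rbp2 (0.986), Sowaha (0.982), A930024E05Rik (0.978), Lima1 (0.977) and Mturn (0.975), of which Rbp2, a retinol-binding protein gene, averaged 6.77 TPM in Pax5+/+, 2.36 in Pax5+/-, 2.21 in Pax5R31Q/- and 0.148 in Pax5-/- cells.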

How the data were processed

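RNA-seq libraries (8, with 2 per genotype) and Pax5 ChIP-seq peak lists (2, with 1 per genotype) were used as deposited. The authors removed ribosomal reads with Bowtie2 (2.3.5.1), aligned the rest with STAR (2.4.2) to GRCm38, counted uniquely mapping reads per RefSeq gene with featureCounts and deposited TPM values. Whether counting used the strand is not given in the sources used here. Peaks were called by the authors with MACS against an input control. The deposited peak files hold starts and ends, converted here to 1-based positions.

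The members and gene lists were chosen with earlier results of these data known. Genes named outside the members were up to 3 per list and comparison past the test with the largest absolute log2 fold change, and the 5 genes most correlated with each of the 2 members of widest range. Genes reaching 1 TPM in any library were tested with limma (3.58.1, R 4.3.3; lmFit and eBayes with trend) on log2(TPM + 1), with all 4 genotypes in one fit and Benjamini-Hochberg adjustment. TPM values are not counts, so no count model was fitted to them. Whole reads were recovered from the steps between TPM values: of the 18206 genes detected in more than 1 library, all gave whole reads (tolerance 0.01 reads), against 0 of 2000 control genes with slightly shifted values. These reads were used for the limma-voom alternative. An exact permutation test of 2 against 2 libraries cannot go below p = 0.333, so none was run. Both fits were also run on simulated data with large changes in well-covered genes, which does not test small changes or scarce genes. Symbols matched RefSeq GRCm38.p6 for 24764 of 25579 genes. Transcript starts included predicted ones. Sequences were read with pysam (0.24.0). Some genes that the rule names are not reported here.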

Additional observations from a re-analysis of the deposited data

How the results depend on the processing

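Over 15 pairs of member and comparison past the test in any fit, the direction held under all alternatives, and 203 of 225 values kept their side of the threshold. Without single libraries, the count of members past the test was 0 to 1 in Pax5R31Q/- against Pax5+/+, 3 to 4 in Pax5-/- against Pax5+/+, 3 to 6 between Pax5R31Q/- and Pax5-/-, 0 to 1 between Pax5R31Q/- and Pax5+/- and 0 throughout in Pax5+/- against Pax5+/+. Where this left 1 library in a genotype, that library was assumed to vary like the others. Limma-voom on recovered reads called 2 members in Pax5R31Q/- against Pax5+/+ (Bcl2l1 and Bcl2) and 2 against Pax5+/-. The 1 call against Pax5+/- went to 0 with no filter on low TPM, with quantile normalization and with eBayes without trend. Peaks at the members numbered 64 with a flank of 50 kb and 15 when only peaks of at least 400 bp were kept. Peak counts after leaving out peaks mostly in repeats (32) and with curated transcript starts alone were alternatives chosen after seeing the data. Of 41 pairs of other gene and comparison named by the rule, none changed direction and 99 of 615 values lost the call. No paired analysis was possible because the labels give the libraries no shared replicate numbers. With 2 libraries per genotype and 1 peak list per genotype, small changes and the spread of peak calls were not resolved.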
